A study of Mus musculus with 27 samples.

Results

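The neuromuscular junction and denervation genes described here were the acetylcholine receptor subunits Chrna1, Chrnd, Chrne and Chrng, the receptor kinase Musk, the transcriptional regulators Myog, Runx1 and Dach2, and the adhesion molecule Ncam1, which together made up 9 of the 36333 genes in the deposited table. They were chosen by symbol, with their expression differences between muscles of different age already known, so their age difference in muscle is given below as a description without a test. RNA sequencing had been performed on skeletal muscle, omental adipose tissue and liver of male MlxKO mice, with 4 samples of each tissue at 5 months and 5 at 20 months. All mice carried LoxP-flanked Mlx alleles, 2 copies of a tamoxifen-activated Cre driven by the ubiquitous ROSA26 promoter, and had received 5 daily tamoxifen injections of 75 mg/kg after weaning at a weight of at least 15 g. No group with intact Mlx was analysed here, so that an age difference cannot be told apart from what the loss of Mlx adds to it. Samples are called by their names in the labels, for example X5S5001 for a 5-month muscle. Names of the older ones begin with X18. The study's list of mice gives that number of months for older animals whose numbers end in the same digits. The labels say 20 months, which is followed here. The muscle from which tissue was taken is not named in the sources used here.

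At the neuromuscular junction a motor nerve releases acetylcholine onto a narrow endplate of the muscle fibre, where pentameric receptors are packed by a scaffold that the nerve-derived protein agrin assembles through its receptor Lrp4 and the kinase Musk. In adult muscle, transcription of the receptor subunits is restricted to the few nuclei below the endplate. The gamma subunit (Chrng) belongs to the fetal receptor and is replaced after birth by the epsilon subunit (Chrne). When the nerve is lost, Chrna1, Chrnd, Chrng, Musk, Myog, Runx1 and Ncam1 are classically induced along the whole fibre, with myogenin (Myog) binding E-boxes of several of these promoters. Dach2 is different. It is a repressor of Myog that is known to be expressed in innervated fibres and to fall, not rise, after denervation, although the rule that assembled these genes lists it with the induced ones.

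The sequences before the start sites of 7 genes are shown because E-boxes, the CANNTG motif bound by myogenin, and the N-box CCGGAA, an element known for synaptic expression of Chrne, are the letters through which these genes are usually connected. RefSeq windows of 250 bases before to 50 bases after the start were found for 7 of the 9 genes on GRCm38.p6. The start of a window need not be the outer end of the gene. Of the sequences below, that of Musk lies inside the gene span given in the next paragraph. Those of Chrne and Dach2 end inside theirs. Each line gives the 160 bases immediately before the start, 5′ to 3′ on the gene's own strand, with CANNTG and CCGGAA (or its reverse complement TTCCGG) in capitals.
Chrna1, chr2:73580339-73580498, minus strand: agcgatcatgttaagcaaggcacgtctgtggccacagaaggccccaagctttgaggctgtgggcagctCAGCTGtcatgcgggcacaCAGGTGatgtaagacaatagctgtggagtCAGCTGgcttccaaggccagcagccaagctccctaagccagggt
Chrng, chr1:87205651-87205810, plus strand: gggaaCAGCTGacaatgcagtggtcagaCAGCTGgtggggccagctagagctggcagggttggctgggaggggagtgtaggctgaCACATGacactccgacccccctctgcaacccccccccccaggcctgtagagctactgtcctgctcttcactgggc
Chrne, chr11:70619195-70619354, minus strand: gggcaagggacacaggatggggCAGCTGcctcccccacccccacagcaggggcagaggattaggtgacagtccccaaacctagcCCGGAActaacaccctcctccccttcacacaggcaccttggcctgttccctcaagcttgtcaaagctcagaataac
Musk, chr4:58285802-58285961, plus strand: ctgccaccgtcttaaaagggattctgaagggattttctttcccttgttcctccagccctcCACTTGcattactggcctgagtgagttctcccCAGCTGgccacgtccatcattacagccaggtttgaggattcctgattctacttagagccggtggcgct
Myog, chr1:134289844-134290003, plus strand: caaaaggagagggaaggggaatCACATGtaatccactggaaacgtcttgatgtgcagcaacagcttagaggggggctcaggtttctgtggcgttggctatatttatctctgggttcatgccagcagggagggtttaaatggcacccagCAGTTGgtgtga
Runx1, chr16:92826075-92826234, minus strand: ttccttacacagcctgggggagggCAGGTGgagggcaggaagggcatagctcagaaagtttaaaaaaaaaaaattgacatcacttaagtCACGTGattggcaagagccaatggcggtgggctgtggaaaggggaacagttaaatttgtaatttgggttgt
Dach2, chrX:113297350-113297509, plus strand: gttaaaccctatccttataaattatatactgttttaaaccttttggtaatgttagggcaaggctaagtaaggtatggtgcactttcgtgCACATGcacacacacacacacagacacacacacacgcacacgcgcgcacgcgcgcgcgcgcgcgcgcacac
Within the whole windows, CANNTG, which reads as the same pattern on both strands, occurred 3 times in each of Chrna1, Chrng and Musk and in the first of 2 Runx1 windows, 2 times in Myog, and 1 time in Chrne and in the first of 2 Dach2 windows. The second windows of Dach2 and Runx1 held none. CANNTG was present in 72.3% of all 32851 windows and at least 3 times in 17.6%, so such counts occur in many promoters. The CAGCTG form occurred 2 times in Chrna1 and in Chrng and 1 time in Musk and in Chrne, whereas 16.3% of all windows held at least 1 and 1.90% at least 2. An N-box was found 1 time in Chrne and 1 time in the second Runx1 window, with a match in 14.9% of all windows on either strand. The matches are letters only and do not show that a factor was bound.

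The 9 genes lie on 7 chromosomes in GRCm38.p6. Chrnd (chromosome 1, 87190597 to 87200070) and Chrng (chromosome 1, 87205811 to 87211835) are neighbours, and Myog lies further along the same chromosome (134290004 to 134292548). Chrna1 lies on chromosome 2 (73563281 to 73580338), Musk on chromosome 4 (58285729 to 58377848), Ncam1 on chromosome 9 (49502129 to 49799393), Chrne on chromosome 11 (70614883 to 70619213), Runx1 on chromosome 16 (92601466 to 92826074) and Dach2 on chromosome X (113297496 to 113836386). RefSeq places another gene over Chrna1 (Gm30940), Chrne (4930544D05Rik), Runx1 (Gm30281), Ncam1 (Gm11149) and Dach2 (Gm24831), and whether the counting used strand is not given in the sources used here, so reads in the shared stretches could belong to either gene.

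Depth ranged from 14384695 to 25673919 counted reads per library over the 27 samples. Values are the authors' normalised read counts, that is reads times a library factor, in which 1 read was worth a fixed amount in each library. Means are given ± SD over the 4 young or 5 old samples of a tissue, and differences ± SE. Every 5-month and 20-month muscle held all 7 myofibre markers, with summed values of 83077 to 112509 at 5 months and 90342 to 108577 at 20 months, and fast fibre myosins far exceeded slow fibre markers (345 to 2828 and 284 to 785 at the 2 ages). The 5-month muscle X5S4299 had the highest slow fibre sum. Hepatocyte markers summed to 365 in the 5-month muscle X5S5238 and to 71.2 or less in every 20-month muscle. The Mlx transcript itself was 9.41 ± 1.89 at 5 months and 10.3 ± 0.800 at 20 months in muscle, a log2 difference of 0.13 (limma adjusted p = 0.503), and includes exons outside the deleted stretch. The loss of Mlx in muscle was partial. By the study's qRT-PCR, the Mlx expression that remained in muscle varied between mice. It exceeded that in liver and adipose tissue in younger and older mice. Chi-square comparisons of replicate libraries found no pair that agreed within counting noise. By the mouse numbers that the study lists, the samples of 1 tissue and age came from separate mice, and the 5-month samples of the 3 tissues came from the same 4 mice.

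Of the 9 genes, 8 passed the filter in muscle (4 or more of the 9 muscles at a value of 1 or above) and Chrng did not. In muscle at 20 months the mean of Dach2 was 3.98 times that at 5 months, whereas the 5-month means of Musk, Myog and Runx1 were 2.55 to 3.38 times and that of Ncam1 1.58 times the 20-month means, and the receptor subunits Chrna1, Chrnd and Chrne had overlapping ranges. The ranges of the 2 ages did not overlap for 2 of the 8, Dach2 and Runx1, against 17.3% of all genes tested. As the genes were chosen on this difference, nothing is read from this count. Fewer fibres or nuclei expressing a gene and less RNA per nucleus cannot be told apart in these bulk samples.

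**Figure D1:**
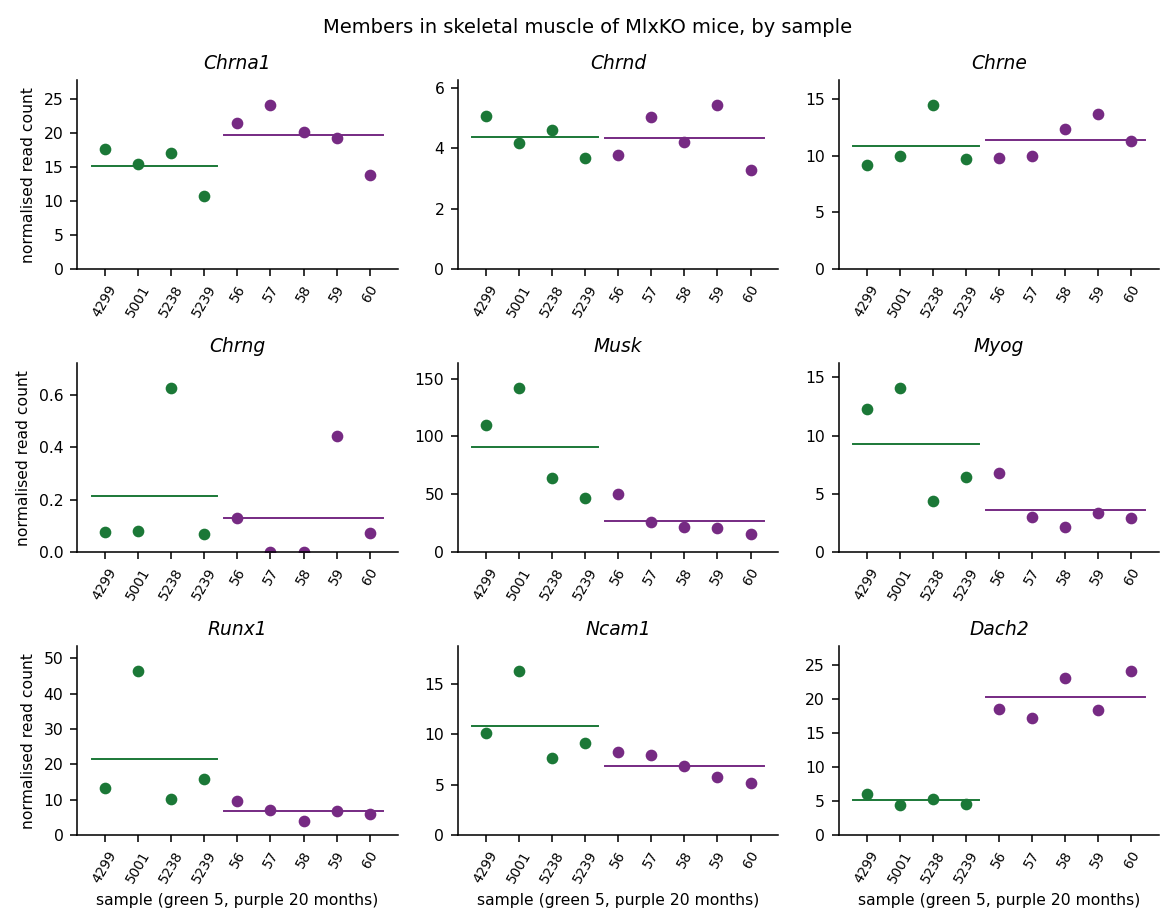
Normalised read count (vertical axis, from 0, separate scale for each gene) of the 9 genes in every skeletal muscle sample (horizontal axis, sample number), green for 5 months and purple for 20 months, with a line at the mean of each age. Dach2 lay between 4.43 and 5.99 at 5 months and between 17.2 and 24.1 at 20 months, while Musk, Myog, Runx1 and Ncam1 were highest in the 5-month sample X5S5001.

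Dach2, the repressor of Myog, had normalised read counts of 5.99, 4.43, 5.32 and 4.60 in the 5-month muscles X5S4299, X5S5001, X5S5238 and X5S5239. In the 20-month muscles X18S56, X18S57, X18S58, X18S59 and X18S60 the values were 18.5, 17.2, 23.1, 18.4 and 24.1. The lowest 20-month sample exceeded the highest 5-month sample, and each age was narrow, with means of 5.09 ± 0.717 and 20.2 ± 3.12. The ratio of the means was 3.98, and it stayed between 3.79 and 4.23 when any 1 of the 9 samples was left out. On the log2(value + 1) scale used for all fits the difference was 1.80 ± 0.14 (SE). The totals behind these means were 267 reads over the 5-month and 1449 over the 20-month libraries.

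Musk, the kinase that receives the agrin signal, had the highest level per kilobase of transcript of the 9 genes in 5-month muscle. Its values there were 110, 142, 64.0 and 47.2 (samples X5S4299, X5S5001, X5S5238 and X5S5239). At 20 months they were 50.3, 25.6, 22.1, 20.7 and 15.5 in samples X18S56, X18S57, X18S58, X18S59 and X18S60. Only the 20-month sample X18S56 and the 5-month sample X5S5239 overlapped, and the means were 90.7 ± 43.1 and 26.8 ± 13.6, a 5-month level 3.38 times the 20-month level. Leaving out 1 sample moved this factor between 2.75 and 4.33.

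Myog, the myogenic factor that activates receptor genes after denervation, had values of 12.3, 14.1, 4.38 and 6.48 at 5 months. The values at 20 months were 6.78, 2.99, 2.17, 3.38 and 2.92. Here too sample X18S56 was the highest 20-month muscle and lay above the 5-month samples X5S5238 and X5S5239, with the other 20-month muscles below all 5-month samples. The 5-month mean of 9.32 ± 4.63 was 2.55 times the 20-month mean of 3.65 ± 1.80, with a range of 2.12 to 3.25 on leaving out 1 sample.

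Runx1, a factor that protects denervated muscle from wasting, was measured at 13.4, 46.4, 10.2 and 15.8 in the 5-month muscles. In the 20-month muscles it was 9.58, 7.18, 4.12, 6.84 and 5.99. All 5-month samples lay above all 20-month samples, though sample X5S5001 was 46.4 against a next highest value of 15.8. The 5-month mean was 3.18 times the 20-month mean, and 1.95 times without sample X5S5001, the lowest factor on leaving out 1 sample.

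Ncam1, whose adhesion molecule spreads over the fibre surface after denervation, had values of 10.1, 16.3, 7.67 and 9.13 at 5 months and of 8.22, 7.98, 6.87, 5.81 and 5.20 at 20 months. The lowest 5-month sample lay within the 20-month range. The means were 10.8 ± 3.80 and 6.81 ± 1.32, and the log2 difference of -0.56 ± 0.20 (SE) was smaller than those of Musk, Myog and Runx1.

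The measurable receptor subunits had overlapping ranges at the 2 ages. Chrna1, the acetylcholine-binding alpha subunit, was 17.7, 15.5, 17.1 and 10.7 at 5 months and 21.6, 24.2, 20.2, 19.3 and 13.8 at 20 months, with 4 of the 5 older muscles above every younger one and sample X18S60 within the 5-month range. Chrnd, the delta subunit common to the fetal and adult receptor, ranged from 3.28 to 5.44 over all 9 muscles with means of 4.39 ± 0.589 and 4.35 ± 0.891. Chrne, the adult epsilon subunit, had means of 10.9 ± 2.43 and 11.5 ± 1.65. Log2 differences at 20 months were 0.36 ± 0.18 (SE) for Chrna1, -0.02 ± 0.15 (SE) for Chrnd and 0.08 ± 0.15 (SE) for Chrne, with a sign for Chrnd that depended on single samples and on the scaling. Chrnb1, the beta subunit, which was not among the chosen genes, was 45.5 ± 5.23 and 41.3 ± 4.02, a log2 difference of -0.13 ± 0.11 (SE) with a limma adjusted p of 0.372.

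Chrng, the fetal gamma subunit, was close to the detection limit. It reached 0.626 (8 reads) in the 5-month sample X5S5238, 0.441 (6 reads) in the 20-month sample X18S59, and 2 reads or fewer in each of the other 7 muscles, with 2 of them at 0. A library with 0 reads allows up to 3 reads by counting error alone. The totals were 11 reads over the 4 younger and 9 reads over the 5 older libraries, at which depth no age difference was detectable and none is stated as a fold.

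Per kilobase of the longest protein-coding GENCODE M21 transcript, the subunits ranked in the same order at both ages. At 5 months the levels were 21.1 ± 2.43 for Chrnb1, 6.72 ± 1.51 for Chrne, 3.47 ± 0.724 for Chrna1, 1.49 ± 0.200 for Chrnd and 0.0767 ± 0.0990 for Chrng. At 20 months they were 19.2 ± 1.86, 7.09 ± 1.02, 4.52 ± 0.875, 1.47 ± 0.302 and 0.0462 ± 0.0658. No neighbours in this order overlapped at either age in their sample ranges. Musk stood at 26.5 ± 12.6 and 7.84 ± 3.97 per kilobase, so that it ranged from 13.8 to 41.4 at 5 months and from 4.54 to 14.7 at 20 months. The transcript in use was not measured, and a shorter one than the longest would raise a gene's value.

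**Figure D2:**
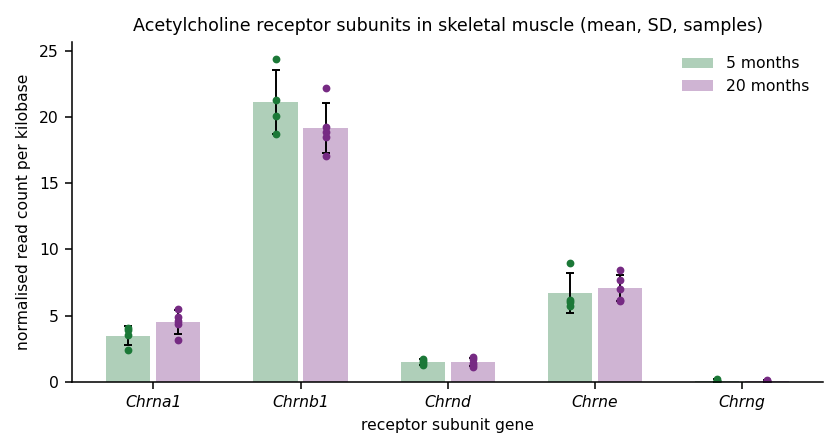
Normalised read count per kilobase of transcript (vertical axis, from 0) of the 5 muscle acetylcholine receptor subunit genes at 5 months (green, n = 4) and 20 months (purple, n = 5), with bars at the mean, error bars of 1 SD and a point for each sample. Chrnb1 was highest at both ages (21.1 and 19.2), Chrne came next (6.72 and 7.09) and Chrng lay near 0 (0.0767 and 0.0462).

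Samples also differed within an age. Among the 5-month muscles, sample X5S5001 had the highest Musk, Myog, Runx1 and Ncam1 values, and among the 20-month muscles sample X18S56 had the highest values of the same 4 genes. With the mean of each age subtracted from log2(value + 1), the 6 pairs of these 4 genes had Pearson correlations of 0.63 to 0.84 over the 9 muscles. The 4 pairs with Dach2 lay between -0.60 and -0.26, and the 12 pairs with Chrna1, Chrnd or Chrne lay between -0.67 and 0.64. These points share library, scaling and depth, and the correlations are descriptions. As a comparison of samples within which scaling cancels, and not of levels between genes, the ratio of Myog to Dach2 reads was 0.824 to 3.18 at 5 months and 0.0940 to 0.366 at 20 months, and the ratio of Musk to Dach2 was 10.3 to 31.9 and 0.645 to 2.71. The ratio of Musk to Chrnb1, both products of the postsynaptic membrane, was 1.17 to 2.69 at 5 months and 0.422 to 1.05 at 20 months.

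The other genes of the pathway were read against the limma fit over all 12720 genes tested in muscle. It called 19.3% of them (2451 genes) at an adjusted p under 0.05, 9.13% higher and 10.1% lower at 20 months. Of 25 further endplate genes 24 were tested, and 1 was called higher and 2 lower, a share no larger than that of all genes. Their median log2 difference was -0.02, compared with 0.02 for all genes tested. Rapsn, the scaffold protein rapsyn that anchors the receptor, rose from 15.7 ± 4.04 to 22.2 ± 2.74, a log2 difference of 0.50 ± 0.16 (SE, limma adjusted p = 0.0486), and this call held in only 2 of the 9 fits that left out 1 sample. Dag1, the dystroglycan that ties the fibre to its basal lamina, fell from 493 ± 98.0 to 312 ± 36.4 (limma adjusted p = 0.0106) with no overlap and was called in all 9 such fits. Lama5, a laminin chain of the basal lamina, fell by 0.42 on the log2 scale (limma adjusted p = 0.0457) and was called in 1 of the 9.

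The rest of the Musk pathway gave no call by limma with all samples. Dok7, the adaptor that activates Musk inside the cell, was 42.6 ± 12.6 at 5 months and 27.3 ± 6.70 at 20 months (limma adjusted p = 0.0651), and it was called lower by DESeq2 (adjusted p = 0.0226), with adjusted p up to 0.126 over the alternatives. Agrn, which encodes agrin, and Lrp4, its receptor, had log2 differences of 0.11 ± 0.12 and 0.22 ± 0.15 (SE), with limma adjusted p of 0.538 and 0.292. Colq, the collagen tail of the synaptic esterase, differed by 0.19 ± 0.16, Ache, the esterase itself, by 0.00 ± 0.11, and Utrn, the endplate dystrophin relative utrophin, by 0.11 ± 0.17 (SE). The sign for Ache and Utrn depended on the scaling or on single samples. Nrg1, a nerve-derived growth factor, did not pass the filter.

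Genes known to respond to denervation in muscle were more often called lower than higher at 20 months. All 19 of that list were tested, and 2 were called higher and 8 lower, beside 9.13% and 10.1% of all genes tested, with a median log2 difference of -0.63 against 0.02 for all genes tested. The list was drawn up with earlier results of these data known, so its direction is not independent evidence. Trim63, the atrophy ubiquitin ligase MuRF1, fell from 3436 ± 809 to 1035 ± 419, a log2 difference of -1.78 ± 0.26 (SE, limma adjusted p = 0.00245). Cdkn1a, the cell cycle inhibitor p21, fell from 348 ± 105 to 72.0 ± 29.1 (limma adjusted p = 0.00170). Gadd45a, a stress protein that drives denervation atrophy, fell from 83.9 to 124 at 5 months to 38.5 to 57.8 at 20 months (limma adjusted p = 0.00221). None of these 3 overlapped between ages.

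Ankrd1, a stretch-responsive sarcomere protein, and Ampd3, an AMP deaminase, had log2 differences of -2.90 and -2.37 (limma adjusted p = 0.0167 and 0.00454). Actc1, the cardiac actin, Rrad, a small GTPase, and Fbxo32, the ubiquitin ligase atrogin-1, were called with -1.16, -1.65 and -0.63 (limma adjusted p = 0.0134, 0.0164 and 0.0426). The ages overlapped for Ankrd1, Actc1 and Fbxo32 but not for Ampd3 and Rrad. Ankrd1 was 312, 1829.7, 389 and 955 at 5 months and 30.5 to 476 at 20 months, highest in X5S5001 and X18S56. The call of Fbxo32 held in 2 of the 9 fits that left out 1 sample. The genes called higher were Gdf5, a BMP-type ligand that opposes denervation atrophy, and Kcnn3, the small-conductance potassium channel of denervated fibres. Kcnn3 rose from 2.92 ± 0.968 to 5.93 ± 1.05 (limma adjusted p = 0.0125). Gdf5 was 0.486 ± 0.231 and 2.23 ± 0.984, on as few as 3 reads in a library. It passed the filter only through the 20-month muscles, so no p is given for it. On genes whose mean reached 5, 14 of the denervation-response list were tested, with 0 called higher and 8 lower. Myod1, a myogenic factor, was 15.4, 218, 24.2 and 48.1 at 5 months and 9.70 to 18 at 20 months, so that sample X5S5001 set its 5-month mean (limma adjusted p = 0.0558). Hdac4, the deacetylase that represses Dach2 in denervated muscle, was 79.2 ± 24.3 and 67.2 ± 13.2 (limma adjusted p = 0.483).

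Among 12 regulators (among them myogenic and Mef2 factors, Pax7, Hdac5 and the Eya and Dach families), all tested, 2 were called higher and 1 lower, beside the same 9.13% and 10.1% of all genes tested, with a median log2 difference of 0.23. Dach1, the paralog of Dach2, rose from 4.90 ± 0.467 to 7.68 ± 1.60, a log2 difference of 0.54 ± 0.15 (SE, limma adjusted p = 0.0332) with no overlap, and was called in 3 of the 9 fits that left out 1 sample. Mef2c, an activator of the Myog promoter, rose from 439 ± 57.1 to 809.7 ± 32.1 (limma adjusted p = 9.8e-04) and was called in all 9. Myf6, the myogenic factor of mature fibres, fell from 192 ± 43.5 to 108 ± 40.8 (limma adjusted p = 0.0206) and was not called without sample X18S58 or without sample X18S60.

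**Figure D3:**
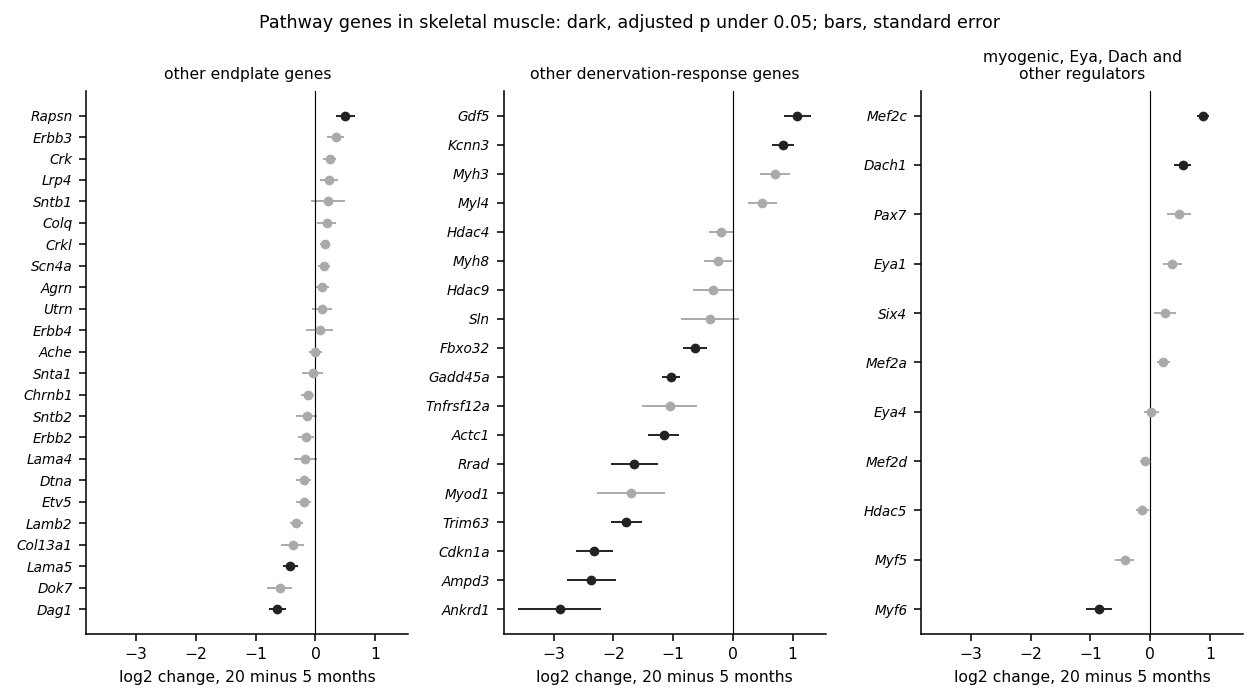
Log2 difference between 20 and 5 months (horizontal axis, 20 minus 5 months) of tested genes of 3 pathway lists in skeletal muscle, with bars of 1 standard error and dark points for a limma adjusted p under 0.05. The denervation-response list extends to -2.90 (Ankrd1) on the left, whereas the endplate list lies between -0.64 (Dag1) and 0.50 (Rapsn).

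Heat shock and immediate early genes moved with the same samples. All 8 of them were tested and 6 were called lower at 20 months, beside 10.1% of all genes tested, with summed values of 1005, 11669, 992 and 3402 in the 5-month muscles and of 327 to 805 at 20 months. Sample X5S5001 had the highest sum at 5 months and sample X18S56 at 20 months, which were also the samples with the highest Musk, Myog, Runx1 and Ncam1. Hspa1a, the inducible heat shock protein, was 120.2, 4176, 168 and 1085 at 5 months and 18.4 to 58 at 20 months. The orders were not the same throughout, since sample X5S5239 was next in the heat shock sum but lowest in Musk. The part of these genes in the age difference was not tested.

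With the samples X5S5001 and X18S56 both left out, an alternative chosen after seeing the data, limma called 3 of the denervation-response list higher and 7 lower, 0 of the endplate list higher and 1 lower, and 2 regulators higher and 1 lower, from 1366 genes called in all.

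**Figure D4:**
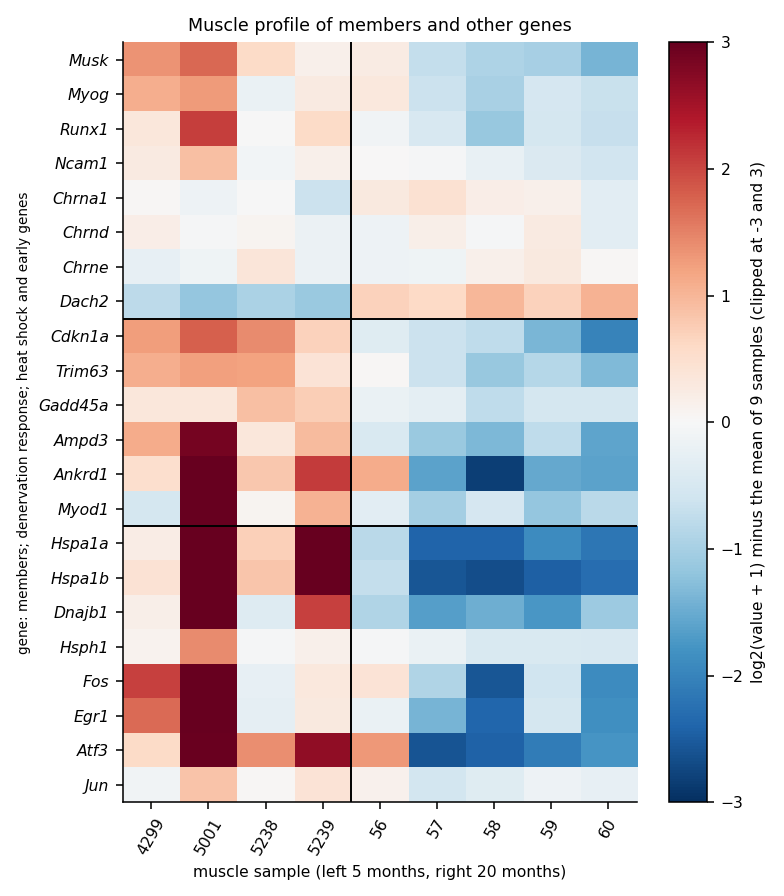
Log2(value + 1) minus its mean over the 9 skeletal muscle samples (colour, clipped at -3 and 3) for 8 of the 9 chosen genes, 6 denervation-response genes and 8 heat shock and immediate early genes (rows), with 5-month samples on the left of the vertical line and 20-month samples on the right. Dach2 is below its mean in all 4 young samples and above it in all 5 old ones, and sample X5S5001 is the most intense column of the lower blocks.

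Markers of other cells in muscle also differed with age. Beside 10.1% of all genes tested that limma called lower at 20 months, 3 of 6 macrophage markers were called lower (sums of 125 to 197 and 71.9 to 138), and so were 3 of 4 fibroblast markers (771 to 1054 and 403 to 743) and 1 of 4 endothelial markers. Schwann cell markers, which would follow nerve tissue in the piece, gave sums of 138 to 247 and 108 to 167. Of the 8, Sox10 was called lower (limma adjusted p = 0.0286) and Ngfr, which denervated Schwann cells express, was called higher. Ngfr was 0.538, 0.322, 0.783 and 1.39 at 5 months and 0.717, 3.26, 3.54, 3.09 and 2.35 at 20 months. It passed the filter only with the 20-month muscles, so no p is given for it and nothing is read from its call. Satellite cell markers gave no call in the main limma fit (sums of 25.8 to 32.8 and 30.9 to 38.9). The lowest adjusted p over the alternatives was 0.0138 for Pax7 and 0.00489 for Myf5. T and NK cell markers summed to at most 0.726 in any muscle. Their part in the levels of Ncam1, Runx1 and the other chosen genes was not tested.

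By the correlation of log2(value + 1) over the 9 muscles with the mean standardised profile of the 8 tested genes, the most similar of 12585 other genes were Atxn10 (r = 0.95), Myom3 (0.94), Gm14827 (0.93), Tax1bp1 (0.92) and Tars (0.92). Myom3, an M-band protein of the sarcomere, ranged from 115 to 207 at 5 months and from 80.9 to 156 at 20 months. After subtraction of the age means the leading genes were Icam1 (r = 0.98), Doc2b (0.97), Strip2 (0.97), Stt3b (0.96) and Tars (0.96). Doc2b, a calcium sensor of vesicle release, was 22.4, 28.2, 9.94 and 5.23 at 5 months and 2.28, 1.66, 1.01, 2.13 and 0.641 at 20 months. These are the highest of many correlations over 9 samples that share scaling and carry no test. The mean profile pools Dach2, which was higher at 20 months, with Musk, Myog and Runx1, which were lower. It stands for no single gene.

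The genes were then compared between tissues, a measure that the choice had not used. Genes at or near 0 outside muscle could pass the filter only through muscle, so the counts of genes higher in muscle are fixed by the filter and nothing is read from them. Adjusted p-values are therefore given only for Ncam1 and Runx1 against adipose tissue. Against omental adipose tissue at 5 months, 8 of the 9 were tested and 7 were higher in muscle, beside 32.0% of all genes tested called higher in muscle. Ncam1 had a log2 difference of 1.17 ± 0.27 (SE, limma adjusted p = 0.00316). This became 0.33 (limma adjusted p = 0.290) with the values rescaled to equal library totals and 0.60 (limma adjusted p = 0.0719) with the 20 most abundant genes left out of that total. The exception among the 8 was Runx1 (log2 difference 0.41 ± 0.39 SE, limma adjusted p = 0.368), the sign of which turned under other scalings and without sample X5S5001. Against liver, 8 of 8 were higher in muscle, beside 38.2% of all genes tested. Runx1 was 0.570 to 1.53 in young liver and also passed this filter only with the muscles, so no p is given for it.

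**Figure D5:**
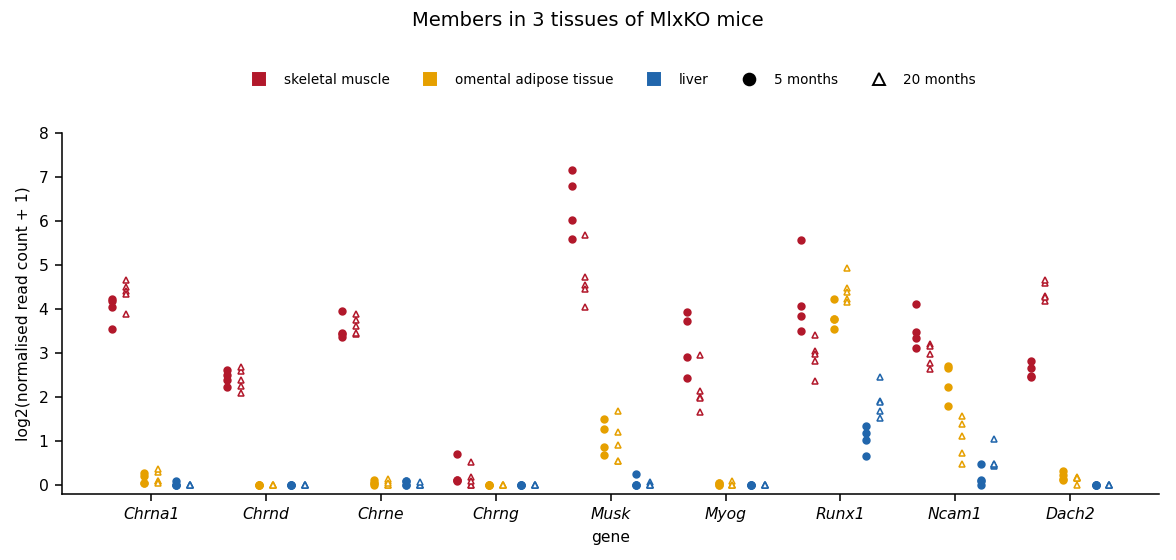
Log2(normalised read count + 1) (vertical axis) of the 9 genes (horizontal axis) in every sample of skeletal muscle (red), omental adipose tissue (orange) and liver (blue), with filled circles for 5 months and open triangles for 20 months. Only Musk, Runx1 and Ncam1 passed the filter in adipose tissue and only Runx1 in liver, and Runx1 was lower in old muscle but higher in old adipose tissue and liver.

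Most of the chosen genes were at or near 0 outside muscle. Chrnd and Chrng had 0 reads in every adipose and liver library. Chrnd was at least 44.7-fold higher in muscle than in adipose tissue and at least 20.4-fold higher than in liver at 5 months, counted against 3 reads per library. Dach2 had 0 reads in every liver library, with muscle at least 23.6-fold higher at 5 months and at least 129-fold at 20 months, and 8 reads or fewer in each adipose library. Myog had 2 reads or fewer in each adipose library and 0 in each liver library. Chrna1 reached 0.281 (12 reads) in adipose tissue and 1 read in a single liver library. Chrne did not exceed 4 reads in any adipose or liver library.

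Musk was measurable in adipose tissue, at 0.606, 1.40, 0.83 and 1.83 at 5 months and 1.30, 0.467, 0.862, 2.18 and 0.448 at 20 months (log2 difference -0.11 ± 0.28 SE, limma adjusted p = 0.782). Myofibre markers summed to 250.2 to 697 in young and 97.9 to 506 in old adipose tissue, and their part in the adipose Musk and Chrna1 reads was not tested.

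With age, 2 of the 3 genes tested in adipose tissue were called, beside 19.1% of all genes tested. Ncam1 was 3.64, 5.32, 5.54 and 2.44 at 5 months and 1.97, 0.389, 1.16, 1.62 and 0.657 at 20 months. It fell without overlap, with a log2 difference of -1.29 ± 0.28 (SE, limma adjusted p = 0.0212), with adjusted p between 2.7e-04 and 0.0411 over the 9 alternatives in which it was tested and a call in 7 of the 9 fits that left out 1 sample. In adipose tissue 3 of 5 mesothelial markers were called lower at 20 months, with sums of 62.5 to 129 against 32.0 to 70.9. So were 2 of 4 endothelial markers and 1 each of the adipocyte, Schwann cell and slow fibre lists. Beside them, 1309 of all 14005 genes tested were called lower. The part of these cells in the Ncam1 level was not tested. Chrnb1 also fell in adipose tissue, from 8.73 to 18.2 at 5 months to 4.67 to 11.3 at 20 months (log2 difference -0.89 ± 0.26 SE, limma adjusted p = 0.0421), a call held in 2 of the 9 fits that left out 1 sample.

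Runx1, which is also a regulator of blood cells, was 12.7, 10.6, 17.8 and 12.7 in young and 17.6, 21.2, 29.6, 19.7 and 16.8 in old adipose tissue. It rose by a log2 difference of 0.60 ± 0.19 (SE, limma adjusted p = 0.0499), with all 5 old samples above the young mean but with overlapping ranges, and was called in 2 of the 9 fits that left out 1 sample (adjusted p 0.0344 to 0.133), with adjusted p from 0.0179 to 0.106 over the other alternatives. In liver, where 1 of 1 tested gene was called beside 19.8% of all genes tested, Runx1 was 1.02, 1.53, 0.570 and 1.28 at 5 months and 1.88, 2.20, 2.76, 2.67 and 4.51 at 20 months. The ranges did not overlap, and the log2 difference was 0.84 ± 0.22 (SE, limma adjusted p = 0.0251), called in 5 of 9 such fits (adjusted p 0.0118 to 0.0640), on 8 to 90 reads per library. The young livers alone would not have passed the filter, which limits this test.

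All 4 B cell markers were called higher with age in both tissues, where 19.1% and 19.8% of all genes tested were called in either direction, with sums of 2.96 to 15.1 and 11 to 150 in adipose tissue and of 1.24 to 6.48 and 6.63 to 14 in liver. Macrophage markers summed to 666 to 1536 and 984 to 5110.5 in adipose tissue and to 178 to 289 and 208 to 704 in liver, with 2 of 6 called higher in each. The part of these cells in the Runx1 levels was not tested.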

How the data were processed

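Gene counts of poly-A selected RNA from skeletal muscle, omental adipose tissue and liver of male MlxKO mice (27 samples) had been made by the authors in CLC Genomics Workbench, and the strand setting and genome used there are not given in the sources used here. The submitters' processing notes name GRCm38.p6 and mm10. The deposited columns, headed CPM, do not have a common total as their heading implies, and are treated as a normalised signal: reads times a library factor set by the authors. All values were whole multiples of 1 read per library (tolerance 0.1 read), so that read counts were recovered, with 14384695 to 25673919 reads per library. Intervals from reads cover counting error only.

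Genes reaching a value of 1 in 4 or more samples of a comparison were fitted with limma 3.58.1 (R 4.3.3, intensity trend, two-sided) on log2(value + 1), which understates changes of low genes, with Benjamini-Hochberg adjustment over all genes tested and a threshold of 0.05. The design had been written for CPM and needed no other test. Comparisons were 20 against 5 months in each tissue, and muscle against each other tissue at 5 months. Each result was recomputed with a pseudocount of 0.1 or 0.5, without the filter, on genes whose mean reached 5, under 3 other scalings, by edgeR 4.0.16 and by DESeq2 1.42.0 from the recovered reads, in 1 fit of all 27 samples, with each sample left out (the genes tested kept), and, between tissues, with a replicate block for the mouse. The study's list of mice gives the 5-month sample numbers as mice with all 3 tissues. Deviations of same-numbered samples correlated at 0.08 to 0.28 between muscle and adipose tissue and at 0.03 to 0.37 between muscle and liver. The same number gave the best match only for mouse 4299 in adipose tissue and for mice 5001 and 5238 in liver, so the pairing rests on the study's list. The scripts were tested on simulated data. The genes, lists and tests were chosen with earlier results of these data known. Text names all 9 genes, 12 set pathway genes, up to 4 called genes with the largest rise and fall in each list, and the 5 most similar genes by correlation. Of these lists, 2 genes counted in them are not reported here by name or value. Falls of Actc1, Rrad and Fbxo32 and the single marker genes were named after their values were seen. Transcript lengths are from GENCODE M21, and positions and promoters from RefSeq on GRCm38.p6.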

Additional observations from a re-analysis of the deposited data

Results flagged for a closer look

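In 7 of 33 groups of a chosen gene in 1 tissue and age, the highest or lowest sample lay far from the rest by Dixon's criterion, which chance alone meets in about 1 of 20 groups. In 5-month muscle these were Runx1 in sample X5S5001 (46.4, next 15.8), Chrne in sample X5S5238 (14.5, next 10) and Chrng in sample X5S5238 (0.626, next 0.0806, on 8 reads and 1 read). In 20-month muscle, sample X18S56 stood apart in Musk (50.3, next 25.6) and in Myog (6.78, next 3.38). Outside muscle the values were low: Ncam1 in the 20-month liver sample X18L74 was 1.05 (next 0.401), and Dach2 in the 20-month adipose sample X18F37 was 0 (next 0.118, on 4 reads).

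The age difference of Runx1 ran in opposite directions in different tissues. All 5 old muscles lay below the mean of the young ones, while all 5 old samples of adipose tissue and of liver lay above it. The log2 difference in muscle minus that in adipose tissue was -1.93 (-1.33 and 0.60), and minus that in liver -2.17 (-1.33 and 0.84). These differences between tissues were not tested, since the muscle difference was known when the gene was chosen.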

How the results depend on the processing

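In muscle 2451 genes were called with age, 1507 without a filter and 1366 with samples X5S5001 and X18S56 both left out, and 1152 to 3794 when 1 sample was left out. In adipose tissue the count was 2674, with 1525 without a filter, 4348 by DESeq2, 5261 with all 27 samples in 1 fit, and 395 to 3749 when 1 sample was left out. In liver it was 2508, with 964 to 3574 when 1 sample was left out. Muscle against adipose tissue and liver at 5 months gave 9708 and 10363 genes, 8441 to 9434 and 9508 to 10138 when 1 mouse was left out, and 9836 and 10531 with the replicate block, in which samples were paired by mouse. The block changed no call of a chosen gene between tissues.

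Of 923 log2 differences of 51 named genes and comparisons under alternatives, 849 kept direction and side of the threshold, 49 lost and 13 gained a call, 1 moved and 11 turned sign, with the cause not tested. The chosen genes in muscle carry no test, so for them the first number counts sizes that moved by less than the spread between samples, whatever their sign near 0, and calls were not followed. The value that moved was Dach2 in muscle (1.99 by edgeR). Chrnd in muscle (-0.02) had no steady sign, at -0.09 to 0.06 on leaving out 1 sample. Signs also turned for Ache (-0.01 by median-of-ratios and by DESeq2, and -0.06 to 0.05 on leaving out 1 sample), Utrn (-0.06 to 0.23 on leaving out 1 sample), Hdac4 (0.04 with X5S5001 and X18S56 left out), Musk in adipose tissue (-0.28 to 0.03 on leaving out 1 sample) and Runx1 in muscle against adipose tissue (-0.51 at equal library totals, -0.25 scaled without the 20 most abundant genes, -0.12 to 0.80 on leaving out 1 mouse, the lowest without X5S5001). Depth limits Chrng in muscle and most of these genes outside it.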
